A study of Mus musculus with 4 samples.

Results

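The miRNA hairpins studied are known from gut, liver and pancreas: Mir192, Mir194-1, Mir194-2, Mir215, Mir802, Mir216a, Mir216b, Mir217 and Mir375, 9 of the 2202 in the annotation, followed here in small RNA of mouse fetal liver. They were chosen by name, with levels of these libraries already known, and a read counted for an arm of a hairpin when it was 18 to 27 nt long and matched without mismatch. The 9 hairpins have 17 distinct arms, because Mir194-1 and Mir194-2 give the same 5p arm. Of these, 16 had at least 1 read in the 4 libraries, among 1478 arms with reads in all, and no read was found for miR-216a-3p. The tested livers were Ago2 CD, which carry a catalytic dead mutant of Ago2, the Argonaute protein able to cut its target RNA, and the controls were wildtype livers, with 2 biological replicate libraries per genotype. The labels give no age, strain or zygosity for either genotype, and the tissue is dissected whole fetal liver frozen before RNA extraction, so fewer cells of a type and less RNA per cell cannot be told apart.

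A miRNA hairpin is trimmed to a short duplex, one strand of which is kept in an Argonaute protein and pairs with messenger RNAs mainly through its seed, bases 2 to 8. The miR-192 and miR-194 miRNAs are made from paired hairpins on shared transcripts and are abundant in hepatocytes, intestinal epithelium and kidney, while miR-215 is best known from intestine and kidney. MiR-802 is known from liver, pancreas and intestine, miR-216a, miR-216b and miR-217 from the exocrine pancreas, and miR-375 from pancreatic islets and other endocrine and epithelial cells. In the fetus the liver is also the main site of red cell formation, and its neighbours include gut and pancreas.

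The mature sequences of the arms that the results turn on are given first, in lower case with the seed in capitals, because 3 pairs of them are near-copies that only single bases separate. They are RefSeq sequences on build GRCm38.p6, in which 16 of the 17 arms were found, and all 9 hairpins were identical to those used for counting.
miR-192-5p: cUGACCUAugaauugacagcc
miR-215-5p: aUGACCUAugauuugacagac
miR-194-5p: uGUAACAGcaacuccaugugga
miR-194-1-3p: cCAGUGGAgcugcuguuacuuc
miR-194-2-3p: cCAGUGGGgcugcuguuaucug
miR-802-5p: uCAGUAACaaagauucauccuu
miR-216a-5p: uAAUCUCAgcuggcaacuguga
miR-216b-5p: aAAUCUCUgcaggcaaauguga
miR-217-5p: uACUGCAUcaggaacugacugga

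MiR-192-5p (chr19:6264857-6264877, plus strand) and miR-215-5p (chr1:185313610-185313630, plus strand) have the same seed and are identical at 18 of 21 bases; counted from the 5′ end with the miR-192-5p base first, they differ by C1A, A12U and C20A. MiR-194-1-3p and miR-194-2-3p are identical at 18 of 22 bases, and so are miR-216a-5p and miR-216b-5p, whose seeds differ by A8U, counted in the same way with miR-216a-5p first. Mir194-2 and Mir192 lie 115 bases apart on chromosome 19, outside protein-coding genes, between Atg2a and Ehd1. Mir194-1 and Mir215 lie 195 bases apart on chromosome 1, opposite to an intron of Iars2; on their own strand Mir194-1 is intronic and Mir215 exonic in the non-coding RNA 2010103J01Rik. Mir216b, Mir216a and Mir217 follow each other on chromosome 11 with gaps of 10735 and 6644 bases, the last 2 in an intron of the non-coding RNA Gm12082. Mir802 stands alone on chromosome 16, and Mir375 lies on chromosome 1 between Cryba2 and Cfap65.

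The 2 Ago2 CD libraries held 21875540 (replicate 1) and 15238066 (replicate 2) reads, and the 2 wildtype libraries 15841697 and 13138065 reads in the same order, which is kept throughout. Arm reads numbered 14423067 and 7814143 in the Ago2 CD libraries and 9684884 and 9178703 in the wildtype libraries. The longest reads were 46 nt in Ago2 CD replicate 1 and wildtype replicate 2, and 50 nt in Ago2 CD replicate 2 and wildtype replicate 1, so each read length holds 1 library of each genotype. The 2 kinds of library stand apart in where reads begin and end, described below for miR-194-5p, and values within each kind are given beside the pooled ones. Levels are in counts per 1000000 (CPM), scaled with TMM factors. As a check of the labels, miR-451a-5p, whose maturation needs Ago2 cutting, had 1203 and 965 CPM in Ago2 CD livers, against 841441 and 415500 CPM in wildtype livers.

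Together the 9 hairpins gave 158968 and 62009 reads in the Ago2 CD libraries, 1.10% and 0.794% of arm reads, and 37589 and 67481 reads in the wildtype libraries, 0.388% and 0.735%. Arm reads include miR-451a-5p, with 23969 and 9180 reads in Ago2 CD livers and 5023742 and 3678886 in wildtype livers. The wildtype shares are lowered by it, so these shares do not compare the genotypes. MiR-192-5p and miR-194-5p made up 98.1% and 98.2% of these reads in Ago2 CD livers and 97.9% and 95.6% in wildtype livers. MiR-192-5p had 3515 and 4020 CPM in Ago2 CD livers, against 3778 and 3048 CPM in wildtype livers. Its level was close in all 4 libraries and the genotypes overlapped: it averaged 3768 ± 357 CPM in Ago2 CD livers and 3413 ± 516 CPM in wildtype livers (SD, n = 2 each). MiR-194-5p had 4312 and 2381 CPM in Ago2 CD livers, against 2385 and 4238 CPM in wildtype livers. Both libraries of 46 nt were high and both of 50 nt were low, whichever the genotype, and reads of miR-194-5p per read of miR-192-5p numbered 1.23 and 0.592 in Ago2 CD livers and 0.631 and 1.39 in wildtype livers. Within a read length the genotypes lay close for miR-194-5p, with a log2 ratio of Ago2 CD to wildtype of 0.02 at 46 nt and -0.00 at 50 nt. MiR-192-3p, the less used arm of Mir192, had 38.4 and 24.4 CPM in Ago2 CD livers and 34.8 and 46.3 CPM in wildtype livers.

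**Figure D1:**
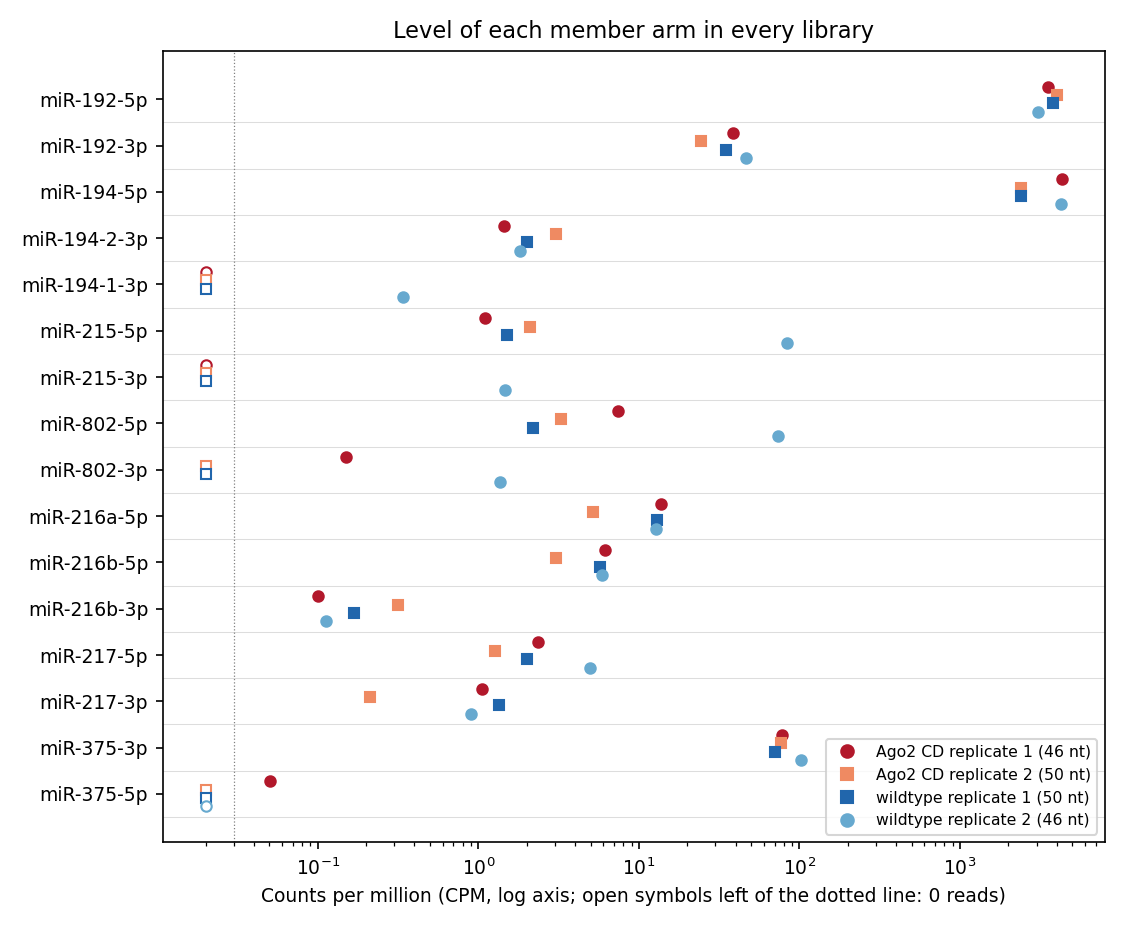
Level of every member arm with reads (rows) in CPM on a log axis, 1 symbol per library; circles are libraries of 46 nt, squares of 50 nt, and open symbols have 0 reads. MiR-192-5p and miR-194-5p lie above 2380 CPM in all 4 libraries, while miR-215-5p and miR-802-5p stand out in wildtype replicate 2, at 83.9 and 73.3 CPM.

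The miR-194-5p reads of the 2 kinds of library ended at different bases in the files. The commonest forms are printed as they occur in the reads, with the letters TGGA of the hairpin in capitals, since reads of the 50 nt libraries ended directly before them.
miR-194-5p, 22 nt read: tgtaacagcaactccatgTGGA
miR-194-5p, 18 nt read: tgtaacagcaactccatg

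The 22 nt form had 41188 reads in Ago2 CD replicate 1 and 18061 reads in wildtype replicate 2, and 0 reads in both 50 nt libraries. The 18 nt form had 21837 reads in Ago2 CD replicate 2 and 13780 reads in wildtype replicate 1, which was 98.1% and 98.3% of miR-194-5p reads from the main start, against 72 reads in Ago2 CD replicate 1 and 32 reads in wildtype replicate 2. Over all members, reads of 18 nt, the shortest counted, numbered 3039 and 22201 in Ago2 CD livers and 13993 and 1271 in wildtype livers, and reads of 17 nt, just outside, 2360 and 548 in Ago2 CD livers and 291 and 931 in wildtype livers; at the other end there were 0 reads of 27 nt, and 2 longer ones in Ago2 CD replicate 1. A 16 nt form of miR-194-5p, below the minimum and so not counted, made up 12.3% of reads from the main start in Ago2 CD replicate 1 and 10.8% in wildtype replicate 2. Across all reads of arm size outside mir-451a, a read ended in TGGA in 4.54% and 0% of cases in Ago2 CD livers (0 of 7789578 reads in replicate 2) and in 4.3e-05% and 5.64% in wildtype livers. Reads ending directly before TGGA were 0.0897% and 5.31% in Ago2 CD livers and 7.67% and 0.123% in wildtype livers. The 3′ adapter of the kit named in the labels begins with the letters TGGA, and the part of adapter trimming in these ends was not tested.

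**Figure D2:**
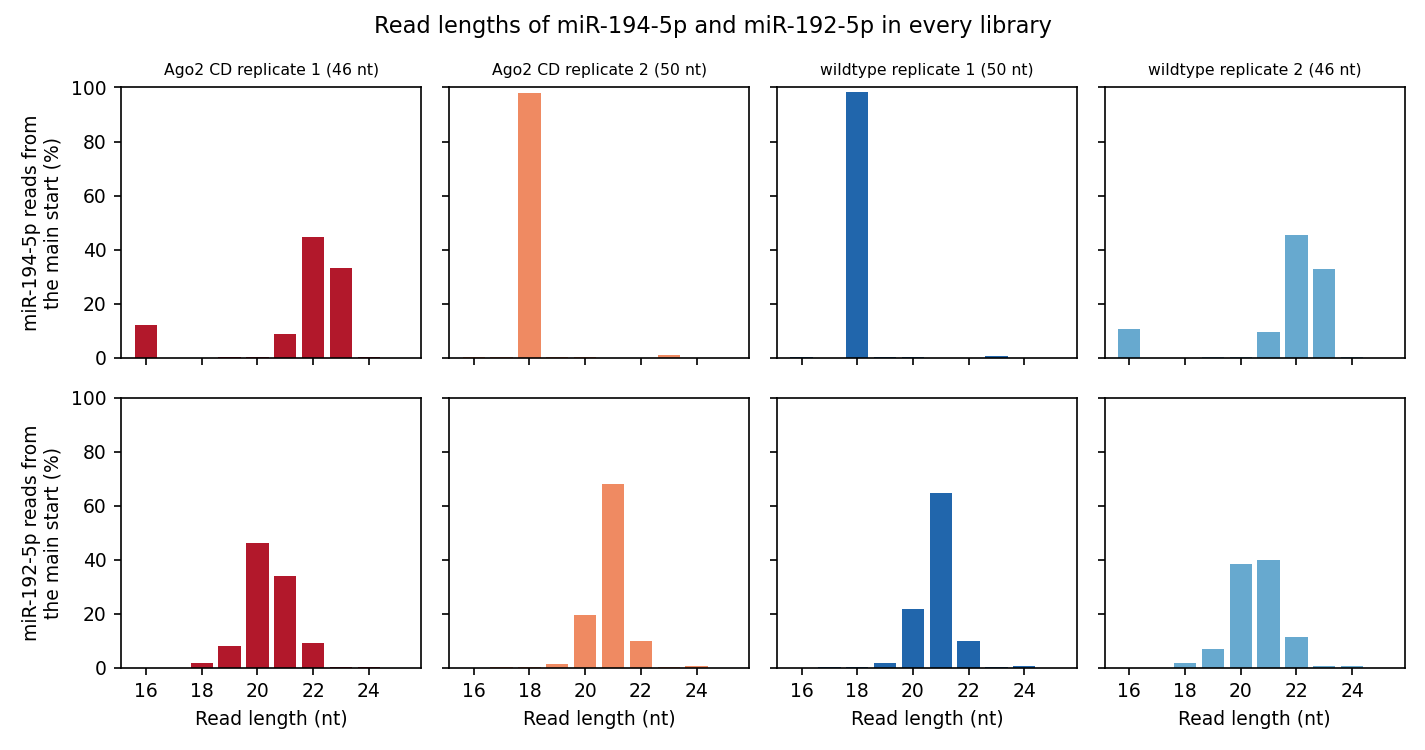
Length of reads from the main start of miR-194-5p (top row) and miR-192-5p (bottom row) as a percentage of such reads, 1 column of panels per library. MiR-194-5p is almost wholly 18 nt in both 50 nt libraries and mostly 22 or 23 nt in both 46 nt libraries, whereas miR-192-5p keeps lengths of 20 and 21 nt in all 4.

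MiR-217 showed the same split at both ends of its hairpin. Its forms are printed with TGG at the end and ATC at the start in capitals, the letters that one kind of library lacked.
miR-217-5p, 22 nt read: tactgcatcaggaactgacTGG
miR-217-5p, 19 nt read: tactgcatcaggaactgac
miR-217-3p, 22 nt read: ATCagttcctaatgcattgcct
miR-217-3p, 19 nt read: agttcctaatgcattgcct

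The miR-217-5p form with TGG had 21 reads in Ago2 CD replicate 1, 18 reads in wildtype replicate 2 and 0 reads in both 50 nt libraries, where the 19 nt form had 9 reads (Ago2 CD replicate 2) and 11 reads (wildtype replicate 1). The miR-217-3p form with ATC had 12 reads in Ago2 CD replicate 1 and 4 reads in wildtype replicate 2, and the form without it had 2 reads in Ago2 CD replicate 2 and 7 reads in wildtype replicate 1. Each form had 0 reads in the other kind of library. Of all arm-size reads outside mir-451a, 2.57% and 0.00747% began with ATC in Ago2 CD livers, and 0.00942% and 2.86% in wildtype livers. For miR-217-3p the start sets the seed, so the seed as read in the files differed between the kinds of library and not between the genotypes. The part of read processing in these starts was not tested, and no change of seed in the livers is read from them. MiR-192-5p has no such letters at its ends: its 21 nt form was 33.9% and 67.8% of reads from the main start in Ago2 CD livers and 64.7% and 39.9% in wildtype livers, and its 20 nt form 46.2% and 19.4% in Ago2 CD livers and 21.7% and 38.6% in wildtype livers.

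MiR-215-5p was low in 3 libraries and high in 1. It had 22 and 20 reads in Ago2 CD livers, against 9 and 743 reads in wildtype livers, or 1.10 and 2.10 CPM against 1.51 and 83.9 CPM. The level in wildtype replicate 2 was 39.9 times that of the next library, Ago2 CD replicate 2, and the genotypes overlapped. MiR-215-3p was seen in the same library alone, with 13 reads there and 0 in the others. As a share of miR-192-5p and miR-215-5p reads together, miR-215-5p was 0.0314% (95% exact Clopper-Pearson interval 0.0197% to 0.0475%) and 0.0523% (0.0319% to 0.0807%) in Ago2 CD livers. In wildtype livers it was 0.0399% (0.0182% to 0.0757%) and 2.68% (2.49% to 2.88%). In wildtype replicate 2, 726 of the 743 reads began at the main start of miR-215-5p, and 1 read lay within 1 mismatch of the Mir192 hairpin. In Ago2 CD replicate 1, 12 of the 22 reads began at the main start and 6 lay within 1 mismatch of Mir192. On reads from the main start alone, a count made after these reads were seen, miR-215-5p had 0.602 and 2.10 CPM in Ago2 CD livers and 1.51 and 82.0 CPM in wildtype livers.

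The neighbouring Mir194-1 was read in the same library. MiR-194-1-3p had 3 reads in wildtype replicate 2, 15.8% of the 19 3p reads of both mir-194 hairpins there (95% exact Clopper-Pearson interval 3.38% to 39.6%). It had 0 of 29 reads in each Ago2 CD library, which allows a share of up to 10.3%, and 0 of 12 reads in wildtype replicate 1, which allows up to 25%. MiR-194-2-3p, from the chromosome 19 hairpin next to Mir192, had 29 and 29 reads in Ago2 CD livers and 12 and 16 reads in wildtype livers, present in all 4. Over the 23 bases from the start of miR-194-5p the hairpins differ by A23C, with the Mir194-2 base first, and among 23 nt reads of the 46 nt libraries C ended 0.0740% in Ago2 CD replicate 1 and 1.17% in wildtype replicate 2. In the 50 nt libraries this base cannot be read for the locus, since both held 0 of the 23 nt reads with A, the Mir194-2 base. A single added C was also found on 2.32% of miR-194-5p reads in Ago2 CD replicate 2 and 1.39% in wildtype replicate 1. In Ago2 CD replicate 1 and wildtype replicate 2 it was on 0.0785% and 0.0572%. Over all arms it was on 16.3% of reads in Ago2 CD replicate 2 and 12.8% in wildtype replicate 1, against 0.149% in Ago2 CD replicate 1 and 0.126% in wildtype replicate 2.

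MiR-802-5p was highest in the same library as miR-215-5p, and the other 3 libraries came in another order. It had 147 and 31 reads in Ago2 CD livers, against 13 and 649 reads in wildtype livers, or 7.38 and 3.26 CPM against 2.18 and 73.3 CPM. Wildtype replicate 2 was again the highest library, 9.94 times the next, Ago2 CD replicate 1. MiR-802-3p had 3 and 0 reads in Ago2 CD livers and 0 and 12 reads in wildtype livers. The arms whose profile over the 4 libraries lay nearest to that of miR-802-5p, by Euclidean distance of centred log2 CPM among 361 arms of at least 10 CPM, were miR-15b-3p (2.07), miR-379-5p (2.21) and miR-154-5p (2.25). For miR-215-5p they were miR-574-3p (3.64), miR-15b-3p (3.66) and miR-186-3p (3.80). Even the nearest arms varied less between libraries than these members. MiR-15b-3p had 92.6 and 52.3 CPM in Ago2 CD livers and 23.8 and 180 CPM in wildtype livers. MiR-574-3p had 10.3 and 3.47 CPM in Ago2 CD livers and 15.2 and 35.9 CPM in wildtype livers.

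The exocrine pancreas hairpins were low in every library. MiR-216a-5p had 13.8 and 5.15 CPM in Ago2 CD livers, against 12.9 and 12.8 CPM in wildtype livers, from 275, 49, 77 and 113 reads. MiR-216b-5p had 6.17 and 3.05 CPM in Ago2 CD livers and 5.69 and 5.87 CPM in wildtype livers. Both were lowest in Ago2 CD replicate 2 and alike in the other 3 libraries, and the ratio of miR-216a-5p to miR-216b-5p was 2.24 and 1.69 in Ago2 CD livers and 2.26 and 2.17 in wildtype livers. MiR-217-5p had 2.36 and 1.26 CPM in Ago2 CD livers and 2.01 and 4.97 CPM in wildtype livers, from 12 to 47 reads per library. Within read lengths its log2 ratio of Ago2 CD to wildtype was -1.02 at 46 nt and -0.60 at 50 nt. The 50 nt value rests on 12 against 12 reads and so on the scaling alone, too few to give a direction. With read length as a term its edgeR adjusted p was 0.151. MiR-216b-3p had 2 and 3 reads in Ago2 CD livers and 1 and 1 read in wildtype livers, and miR-217-3p had 21 and 2 reads in Ago2 CD livers and 8 and 8 reads in wildtype livers.

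MiR-375-3p, the islet miRNA that limits insulin secretion, had 78.2 and 76.3 CPM in Ago2 CD livers, against 70.3 and 101.9 CPM in wildtype livers. It averaged 77.3 ± 1.34 CPM in Ago2 CD livers and 86.1 ± 22.3 CPM in wildtype livers (SD, n = 2 each), with wildtype replicate 2 highest and the genotypes overlapping. Reads of 17 nt, just below the minimum, numbered 377 and 3 in Ago2 CD livers and 0 and 171 in wildtype livers, so counts of the 46 nt libraries leave out more of this arm. Its other arm, miR-375-5p, had 1 read in Ago2 CD replicate 1 and 0 in the other libraries.

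In the fit over all arms with edgeR's quasi-likelihood test, 582 arms had enough reads and 2, or 0.344%, passed an adjusted p of 0.05, neither of them a member. Of the members, 10 arms had enough reads to enter the fit, and 0 passed; 18 of the 582 arms and 0 of these members had an unadjusted p under 0.05, and with DESeq2 8 arms passed, miR-215-5p the 1 member among them. The genotypes did not overlap in 173 arms, or 29.7%, and in 0 of the 10 members. Since the members were chosen with their levels known, their fold changes are a description. Their median log2 fold change was -0.34, beside 0.04 over all 582 arms, and 3 of 10 were above 0. The fold change was 0.14 (SE 0.28) for miR-192-5p, 0.02 (SE 0.47) for miR-194-5p and -0.16 (SE 0.34) for miR-375-3p. It was -0.43 (SE 0.58) for miR-216a-5p, -0.31 (SE 0.49) for miR-216b-5p and -0.94 (SE 0.64) for miR-217-5p. For all of these arms but miR-217-5p it was smaller than its standard error. With plain totals of arm reads in place of TMM scaling the median of all arms moved to 0.74 and that of the members to 0.38, so miR-192-3p, miR-216a-5p, miR-216b-5p and miR-375-3p turned positive while staying below the median of all arms.

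The 2 largest fold changes among the members rested on wildtype replicate 2. MiR-215-5p had a log2 fold change of -4.76 (SE 1.89), which was 0.08 without wildtype replicate 2 and -5.69 without wildtype replicate 1. Within read lengths the log2 ratio of Ago2 CD to wildtype was -6.03 at 46 nt and 0.44 at 50 nt. MiR-802-5p had a log2 fold change of -2.82 (SE 1.59), which was 1.34 without wildtype replicate 2, and its log2 ratio was -3.28 at 46 nt and 0.54 at 50 nt. The 50 nt values rest on 20 against 9 reads for miR-215-5p and on 31 against 13 reads for miR-802-5p, too few to give a direction.

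**Figure D3:**
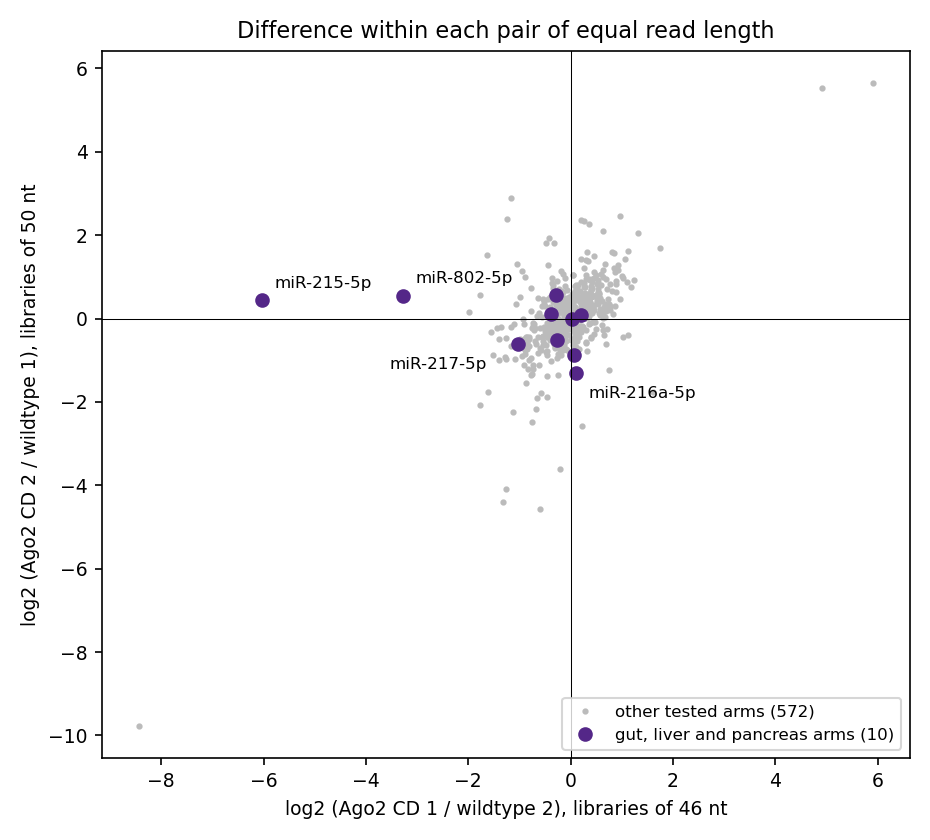
Log2 ratio of Ago2 CD to wildtype in the 46 nt pair (horizontal axis) and in the 50 nt pair (vertical axis) for the 582 tested arms, the 10 members in purple. MiR-215-5p (-6.03, 0.44) and miR-802-5p (-3.28, 0.54) lie far to the left of the other members and near 0 on the vertical axis.

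The 3 measures tested next, within a hairpin or arm, were not used to choose the members and were fitted with limma over all hairpins or arms with enough reads. The balance of 3p and 5p arms could be tested for Mir192 and Mir194-2. The 3p share of Mir192 was 1.08% and 0.603% in Ago2 CD livers and 0.914% and 1.5% in wildtype livers, a log2 difference in ratio of -0.54 (SE 0.59, limma adjusted p = 0.995). For Mir194-2 it was 0.0337% and 0.128% in Ago2 CD livers and 0.0842% and 0.0426% in wildtype livers, a log2 difference of 0.11 (SE 0.84, limma adjusted p = 0.995). Neither passed, where 2 of 283 hairpins (0.707%) did. The genotypes overlapped for both. Within read lengths the 3p share of Mir192 was lower in Ago2 CD livers in both pairs, at 1.08% against 1.5% at 46 nt and 0.603% against 0.914% at 50 nt, and with read length as a term the log2 difference of -0.54 had a SE of 0.22 and a limma adjusted p of 0.332. Without single libraries the difference ranged from -0.96 to -0.12 for Mir192 and from -0.86 to 1.07 for Mir194-2.

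Tails, 1 to 3 untemplated bases at the 3′ end, were tested on 4 member arms. MiR-192-3p was the most tailed of them, with 26.2% and 39.3% of reads in Ago2 CD livers and 32.9% and 23.5% in wildtype livers. MiR-192-5p had tails on 11.1% and 17.9% of reads in Ago2 CD livers and on 17.8% and 12.6% in wildtype livers, high in both 50 nt libraries. Counting only single added bases other than C, its share was 6.67% and 7.07% in Ago2 CD livers and 7.96% and 7.54% in wildtype livers. On this count the kinds of library overlapped, and the log2 difference of Ago2 CD to wildtype was -0.19 (SE 0.30, limma adjusted p = 0.999). The 4 arms had log2 differences from -0.10 to 0.30, and 0 of 4 passed, as did 0 of all 276 arms (0%), with a limma adjusted p of 0.999 for each member and 0 arms at an unadjusted p under 0.05.

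The 5′ end sets the seed, and miR-192-5p, the member arm with the highest mean CPM, was often read from a second start. Its reads that began 1 base later carry a shifted seed, shown in capitals in their 22 nt form.
miR-192-5p, 22 nt read from the next base: tGACCTATgaattgacagccag

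Reads from this start were 25.1% and 18% of miR-192-5p reads in Ago2 CD livers and 19.8% and 26.3% in wildtype livers, higher in both 46 nt libraries. Reads from any start but the main one were 28.1% and 19.2% in Ago2 CD livers and 20.7% and 29.7% in wildtype livers, a log2 difference of -0.13 (SE 0.46, limma adjusted p = 0.997). MiR-192-3p had 32.9% and 22% such reads in Ago2 CD livers and 17.8% and 32.4% in wildtype livers, a log2 difference of 0.20 (SE 0.59, limma adjusted p = 0.997). MiR-375-3p had 10.6% and 6.61% such reads in Ago2 CD livers and 6.43% and 10.8% in wildtype livers, again ordered by read length. None of the 4 member arms tested passed, and neither did any of the 251 arms (0%), of which 2 had an unadjusted p under 0.05 in limma. For miR-194-5p, reads from other starts were 5.59% and 0.0225% in Ago2 CD livers and 0.0358% and 5.41% in wildtype livers. They were thus ordered by read length, and the log2 difference was -0.31 with a SE of 4.04. With read length as a term the difference of -0.31 had a SE of 0.23 and a limma adjusted p of 0.629.

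Markers of liver and of neighbouring organs were read from fragments of messenger RNA of 20 nt or longer in the same libraries. All 10 hepatocyte genes were seen in each library, at a summed 425 and 330 reads per 1000000 outside mir-451a in Ago2 CD livers and 134 and 243 in wildtype livers, and Alb, the serum albumin gene, had 4943 and 2490 reads in Ago2 CD livers against 674 and 1176 in wildtype livers. All 10 erythroid genes were seen as well, at 417 and 513 reads per 1000000 in Ago2 CD livers and 267 and 356 in wildtype livers. The hepatocyte miRNA arms, both of miR-122, summed to 67506 and 29223 CPM in Ago2 CD livers and 20003 and 51507 CPM in wildtype livers, high in both 46 nt libraries as miR-194-5p was. The defining hepatocyte and erythroid markers were thus present in all 4 libraries.

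Intestinal markers were near 0 in every library, wildtype replicate 2 included. Of 12 genes, 9 had no read anywhere, among them the intestinal transcription factors Cdx1 and Cdx2 and the adhesion gene Cdh17. The list summed to 23 and 16 reads in Ago2 CD livers and 3 and 6 reads in wildtype livers, or 1.05 and 1.05 reads per 1000000 against 0.289 and 0.648. Those 6 reads of wildtype replicate 2 came from Olfm4 (4) and Krt20 (2), and Fabp2, a gene of absorptive cells, had 3 reads in Ago2 CD replicate 2 and 0 elsewhere. All 10 stomach genes were at 0 in each library, which allows up to 0.137 and 0.197 reads per 1000000 in Ago2 CD livers and 0.289 and 0.324 in wildtype livers. Fragments sampled messenger RNA thinly: in wildtype replicate 2 the 10 hepatocyte genes gave 2250 reads in all, with 16 for Apoa2. A count of 0 for a gut, stomach or pancreas gene therefore does not exclude low expression.

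Pancreas markers were equally scarce. The 12 exocrine genes summed to 2 and 0 reads in Ago2 CD livers (Cela1) and 0 and 1 read in wildtype livers (Cpa1), with 10 genes at 0 throughout. Of the 10 endocrine genes only Chga, a granule protein gene of many endocrine cells, was seen, with 5 and 12 reads in Ago2 CD livers and 0 and 0 in wildtype livers, and Ins1, Ins2 and Gcg were at 0. Skeletal and heart muscle genes had 0 and 5 reads in Ago2 CD livers and 5 and 0 reads in wildtype livers, and smooth muscle genes 5 and 3 reads against 1 and 3. Among miRNA arms, the muscle arms of mir-1a, mir-133 and mir-206 summed to 13.2 and 34.7 CPM in Ago2 CD livers and 707 and 31.2 CPM in wildtype livers, high in wildtype replicate 1 and not in replicate 2. The epithelial arms of the mir-200 family summed to 1647 and 1034 CPM in Ago2 CD livers and 780 and 1557 CPM in wildtype livers, those of mir-143 to 1443 and 751 against 749 and 1364, and those of mir-9, a neural miRNA, to 259 and 15.9 against 12.6 and 205. All 3 sums were higher in both 46 nt libraries and did not set wildtype replicate 2 apart. Single arms of the mir-200 family differed in this: miR-200a-3p and miR-200b-3p were highest in Ago2 CD replicate 1. By contrast, miR-141-3p, miR-200c-3p, miR-429-3p, miR-200a-5p and miR-200b-5p were highest in wildtype replicate 2. There miR-141-3p had 145 CPM, against 128 CPM in Ago2 CD replicate 2, and miR-200c-3p 75.4 against 71.8 CPM. No marker list covered kidney. The part of other tissues in the levels of miR-215-5p and miR-802-5p was not tested beyond these values.

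**Figure D4:**
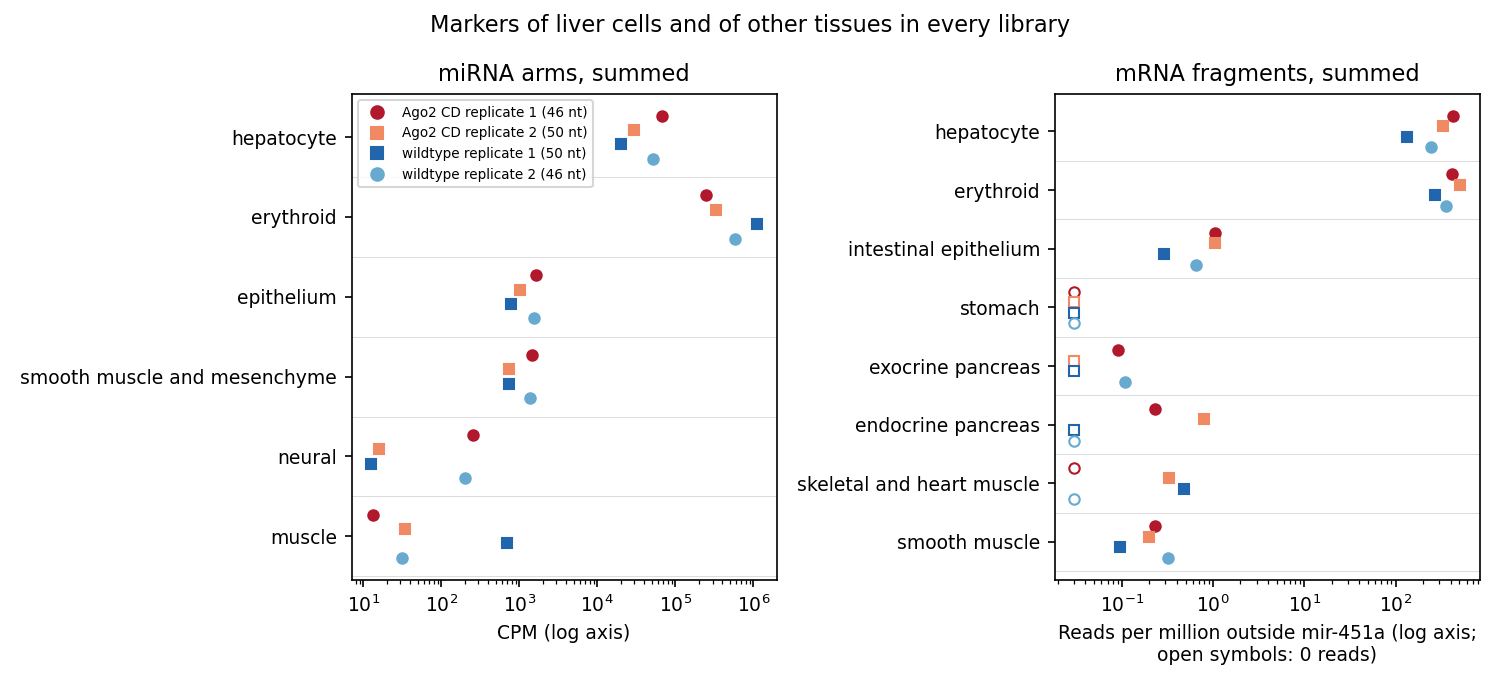
Summed level of each marker list in every library, miRNA arms in CPM (left; TMM scaling lets the erythroid sum of wildtype replicate 1 reach 1123552) and messenger RNA fragments in reads per 1000000 outside mir-451a (right), both on log axes, with open symbols for 0 reads. Hepatocyte and erythroid fragments lie above 130 per 1000000 in all 4 libraries, and gut, stomach and pancreas fragments lie at or below 1.05 per 1000000.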

How the data were processed

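The authors deposited raw counts, 1 file per library: every distinct read is listed beside how often it was sequenced, and the whole-number values show no normalization. Per the labels' protocols, Trizol was used for RNA extraction and a modified TruSeq small RNA procedure for the libraries. The submitters' processing notes name cutadapt; trimming settings and genome build are not given in the sources used here. The series text calls the libraries biological replicates, and nothing states that they came from separate litters.

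Repeated rows of a read were summed. Between 0.183% and 0.256% of reads held an undetermined base and were not used. Reads of 18 to 27 nt were matched to the sense strand of the 2202 hairpins of GENCODE vM21 (GRCm38), and assigned to an arm by the side of the hairpin's midpoint. Arms with the same first 18 nt were merged, and reads on several arms (0.00863% to 0.0290%) were left out. Arm counts were tested with edgeR 4.0.16 (quasi-likelihood, TMM, filterByExpr, two-sided, Benjamini-Hochberg), and arm ratios (at least 20 reads in every library), tails and 5′ ends (at least 200) with limma 3.58.1 (R 4.3.3) on a log2 scale after adding a pseudocount of 0.5. Within-pair log2 ratios use a prior count of 2. DESeq2 1.42.0 was an alternative, as were other scalings, filters, read lengths, a replicate block, read length as a term and leaving out each library. Marker fragments matched a transcript of a listed gene without mismatch. Those that also matched another list, or a protein-coding or small RNA transcript of an unlisted gene, were left out. Fragments shared by genes of the same list, such as Hba-a1 and Hba-a2, were kept. Other software was Python 3.11.15, pandas 2.3.3, NumPy 2.4.6 and SciPy 1.17.1. Reads carry no molecular identifiers, so intervals and limits (3 counts for a count of 0) cover counting error only. All arms of the 9 hairpins are accounted for, and those of at least 10 CPM in any library are given in full. The members, the marker lists and the tests were chosen with earlier results of these data known. The edgeR and limma fits were tested on simulated data before use.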

Additional observations from a re-analysis of the deposited data

How the results depend on the processing

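Over all arms the count past the threshold was 2, and it was 1 with the library size taken without mir-451a and mir-486, 8 with DESeq2, 12 with no filter, 1 with reads of 20 to 24 nt, 16 with read length as a term, and 0 to 6 when single libraries were left out. Among the members it was 0 of 10. With DESeq2 it was 1 of 10 (miR-215-5p), beside 8 of all 582 arms. With no filter it was 3 of 16 (both arms of miR-215 and miR-802-5p), beside 12 of all 1478 arms. These 3 arms were all highest in wildtype replicate 2, and miR-215-3p had 13 reads there and 0 elsewhere. Without wildtype replicate 2 the log2 fold change was 0.08 for miR-215-5p and 1.34 for miR-802-5p. For arm ratios the count was 2, and 0 to 2 without single libraries; for tails it was 0, and 3 with read length as a term, with 0 members among them in either. The share of miR-215-5p in wildtype replicate 2 was 3.0% in reads of 20 to 24 nt. The log2 ratio of Ago2 CD to wildtype means of marker fragments was 1.00 for hepatocyte and 0.58 for erythroid genes, and 1.54 and 1.12 per 1000000 reads of the whole library. The cause of these changes was not tested; leaving out a library leaves 1 in its genotype, which the fit assumes to vary like the other 2. Counting reads of 16 to 27 nt, chosen after seeing the data, changed no count of calls.

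With the replicate number as a block, 3 arms passed for level and 1 hairpin for arm ratio, with 0 members in either. Deviations of same-numbered libraries correlated at -0.72 over the 582 arms, so the numbers may be crossed; pairing libraries of equal read length, which crosses them, is the fit with read length as a term and called 16 arms and 0 members. Both arms of miR-217 had under 50 reads in every library, and 6 of the 16 member arms with reads were too low to be tested.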
